A study of Mus musculus with 2 samples.

Results

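The 3 kindlin genes, Fermt1, Fermt2 and Fermt3, were followed across the cell classes of 4T1 mouse mammary tumours, as 3 of the 32285 genes in a single-cell RNA count matrix. They were taken by symbol, and their UMIs (distinct RNA molecules counted after amplification) were summed per library and per cell class. The data are 2 droplet libraries, 1 per group. The control library came from tumours of 4T1 cells, a triple-negative mammary carcinoma line, that had a wild-type genotype and a control guide RNA. The knockout library came from tumours of 4T1 cells in which Kindlin-2 (K2-KO, by a K2 guide RNA) had been targeted. Both kinds of cell were grown in the fat pads of female mice of the BALB/c strain (written BLB/c in the labels), and tumours were taken at 150 mm3, digested for 45 min at 37 degrees and sorted live by the presence or absence of mCherry. The labels do not give the age of the mice, the number of tumours pooled, the sorted fraction that was loaded, whether the knockout cells were 1 clone, or the exon that the guide cuts. Counts at the 3' end of a transcript do not test such a cut, so Fermt2 RNA below is a level of RNA and not a check of the edit.

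Kindlins are cytoplasmic adaptor proteins that bind the tails of integrin beta subunits and, together with talin, switch integrins to their ligand-binding state. They also link integrins to the complex of integrin-linked kinase, PINCH and parvin, and so to actin. Fermt1 encodes kindlin-1, known from epithelia and skin, Fermt2 encodes kindlin-2, the widespread member found in muscle, stroma and many epithelia, and Fermt3 encodes kindlin-3, the member of blood cells, in which the integrins of leukocytes and platelets depend on it.

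On the mm10 genome (GENCODE M21) all 3 genes lie on the minus strand of different chromosomes. Fermt1 (ENSMUSG00000027356) spans chr2:132904389-132945906, Fermt2 (ENSMUSG00000037712) spans chr14:45458795-45530118 and Fermt3 (ENSMUSG00000024965) spans chr19:6998958-7019469. The 3' end of Fermt3 overlaps Trpt1, on the opposite strand, by 89 bases, and the sources used here do not state whether counting used strand. In macrophages Trpt1 stood at 0.341 CPM in the control and 0.832 CPM in the knockout library, where Fermt3 stood at 184 and 199 CPM (a gene's UMIs divided by all UMIs of the class, on the usual CPM scale). In tumour cells Trpt1 was the higher of the pair, at 2.87 and 3.09 CPM, where Fermt3 stood at 1.33 and 1.49 CPM.

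Because the 3 genes divide the tumour between them by cell type, their promoters are shown side by side, from 250 bases before to 50 bases after the RefSeq start (GRCm38.p6, minus strand, 5' to 3'). The windows are chr2:132945987-132946286 for Fermt1, chr14:45530016-45530315 for Fermt2 and chr19:7019420-7019719 for Fermt3. The RefSeq start of Fermt1 lies 130 bases upstream of the GENCODE gene start, that of Fermt2 lies inside the GENCODE gene and that of Fermt3 is the same base. Capitals mark the CArG box and the GC boxes (GGGGCGGGG) in Fermt2, TGTGGT (the RUNX core, in 1 place with 2 further bases as TGTGGTAA) in Fermt3, and CAGGAAG (an ETS core with flanks, found on the other strand and so printed as CTTCCTG) in Fermt1 and Fermt3.
Fermt1: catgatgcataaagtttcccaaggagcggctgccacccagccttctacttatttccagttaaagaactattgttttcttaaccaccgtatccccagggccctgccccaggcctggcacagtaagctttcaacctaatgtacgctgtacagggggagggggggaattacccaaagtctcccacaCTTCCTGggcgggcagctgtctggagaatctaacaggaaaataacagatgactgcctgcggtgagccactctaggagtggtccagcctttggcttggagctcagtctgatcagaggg
Fermt2: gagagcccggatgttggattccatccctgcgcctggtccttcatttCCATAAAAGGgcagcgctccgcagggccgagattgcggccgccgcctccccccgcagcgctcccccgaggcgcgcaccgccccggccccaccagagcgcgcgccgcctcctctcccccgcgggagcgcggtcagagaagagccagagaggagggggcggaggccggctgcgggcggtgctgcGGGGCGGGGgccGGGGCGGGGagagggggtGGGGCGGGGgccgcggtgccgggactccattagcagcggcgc
Fermt3: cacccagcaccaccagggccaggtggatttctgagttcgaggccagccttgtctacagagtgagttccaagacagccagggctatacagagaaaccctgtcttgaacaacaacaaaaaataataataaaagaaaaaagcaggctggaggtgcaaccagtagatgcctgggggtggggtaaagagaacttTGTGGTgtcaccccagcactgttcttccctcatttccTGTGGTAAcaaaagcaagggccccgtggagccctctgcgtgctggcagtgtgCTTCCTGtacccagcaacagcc

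The Fermt2 window is a CpG-rich one, with 76.7% G and C and 37 CG dinucleotides, and 5.37% of 27025 RefSeq mouse promoters of this length hold as many or more. The Fermt1 window holds 5 (53.0% G and C), and 43.6% of promoters hold as few or fewer. The Fermt3 window holds 3 (52.3% G and C), and 31.9% of promoters hold as few or fewer. The motifs were picked after the sequences and the levels were known, and both strands were searched. Fermt2 has 1 CArG box, the serum response factor element, from base -204 to base -195 before the start, and 1.57% of all the promoters hold one. It also has 3 GC boxes, a motif in 11.6% of promoters. In Fermt3 the RUNX core occurs 2 times (16.9% of promoters hold it, and 1.02% hold the longer TGTGGTAA). CAGGAAG occurs once each in Fermt1 and Fermt3 and in 13.0% of promoters. An AP-1 site (TGACTCA, 5.17% of promoters) and a TEAD core (GGAATG, 14.6%) were searched and are not in these windows. A match is a description of the letters and not a binding site.

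Of 15288 deposited barcodes (13 barcode sequences occur in both libraries), 7530 control and 6761 knockout cells were analysed, with median depths of 22213 and 15987 UMIs. A cell was put in a class when it held at least 1 UMI and 100 CPM of 1 gate gene (Epcam for epithelium, C1qa for macrophages, Cd3e for T cells, Ncr1 for NK cells, S100a8 for neutrophils, Col1a1 for fibroblasts, Pecam1 for endothelium), less than 100 CPM of the other 6, and lay in a cluster whose markers named the same class. Class names here stand for marker-based, "-like" identities. Tumour cells are the Epcam cells outside the clusters marked as normal mammary gland, 2653 in the control and 1682 in the knockout library. Their 7 epithelial markers were all detected in both libraries. The Pecam1 gate was impure without the cluster rule: 21.5% of its cells in the control and 5.76% in the knockout library lay in the endothelial cluster, against 65.8% to 97.0% for the other gates. With 1 library per group no test between groups is possible. The intervals given are 95% intervals of counting error. Those of levels and ratios take each UMI as independent, so they leave out differences between the cells of a library and between tumours.

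Over all analysed cells Fermt1 was the most counted kindlin and Fermt2 and Fermt3 changed rank between the libraries. Fermt1 stood at 141 CPM in the control and 103 CPM in the knockout library, Fermt2 at 42.6 and 20.98 CPM, and Fermt3 at 32.6 and 44.5 CPM. The log2 ratios, knockout over control, were -0.45 for Fermt1, -1.02 for Fermt2 and 0.45 for Fermt3. In such sums fewer cells of a type and less RNA per cell cannot be told apart, so the same genes are given by class below.

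**Figure D1:**
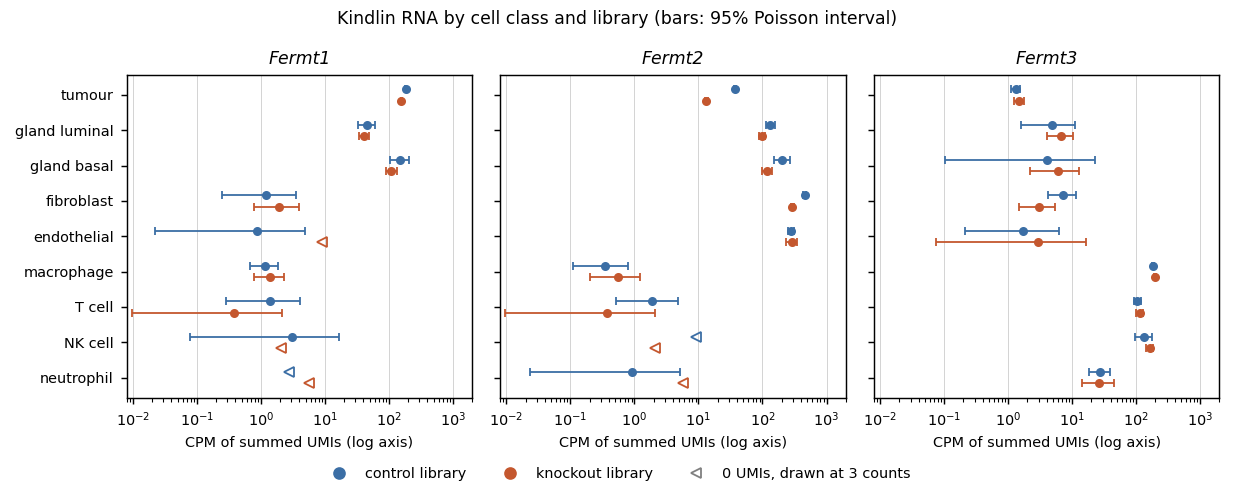
Level of each kindlin gene (CPM of summed UMIs, log axis) in 9 cell classes of the control and the knockout library, with 95% Poisson intervals; an open triangle marks a class with 0 UMIs, drawn at the level of 3 counts. Fermt1 is high in tumour cells (184 and 157 CPM) and gland cells, Fermt2 in fibroblasts (457 and 292 CPM) and endothelium, and Fermt3 in macrophages (184 and 199 CPM) and lymphocytes.

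Fermt1 RNA was epithelial. It stood at 184 CPM in control tumour cells (95% interval 182 to 187) and 157 CPM in knockout tumour cells (154 to 160). Basal cells of the normal gland, the myoepithelial layer, held 149 CPM in the control (12 cells) and 110 CPM in the knockout library (29 cells), and luminal gland cells held 45.4 and 40.7 CPM. Tumour and basal gland cells were thus alike in order of size, and the luminal cells were lower in both libraries. Over the named clusters of both libraries together, without the gate, the order was tumour epithelium (169 CPM), basal gland (121) and luminal gland (37.9), each apart from the next by intervals without 0. The next classes in that order, from endothelium (9.85 CPM) down to NK cells (0.388 CPM), did not differ from their neighbours beyond counting error. Of the 16 endothelial UMIs behind that value, 15 came from 1 knockout cell, and the control endothelium had 1 UMI (0.825 CPM). In gated fibroblasts, endothelium and leukocytes Fermt1 had between 0 and 17 UMIs per class and library. Macrophages, for example, held 17 UMIs in the control (1.16 CPM) and 15 in the knockout library (1.39 CPM). Summed over the gated leukocytes Fermt1 stood at 1.15 and 1.04 CPM, and the keratin gene Krt8 at 24.7 and 29.1 CPM, against 1608 and 1604 CPM of Krt8 in tumour cells. The part of epithelial RNA in the Fermt1 counts of leukocytes was not tested.

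Fermt2 RNA was stromal first and epithelial second. Fibroblasts held 457 CPM in the control library (431 to 485) and 292 CPM in the knockout library (275 to 310), from 87 cells in each. Endothelial cells held 282 CPM (41 cells) and 288 CPM (22 cells). Gland basal cells held 202 and 118 CPM, and gland luminal cells held 133 and 98.6 CPM. Tumour cells were lowest of the classes with Fermt2 RNA, at 37.5 CPM in the control (36.4 to 38.6) and 13.4 CPM in the knockout library (12.6 to 14.1). Over both libraries together, the named clusters placed pericytes or smooth muscle cells, contractile cells of vessel walls, above all of these at 615 CPM, followed by fibroblasts (352), endothelium (285), basal gland (134), luminal gland (107) and tumour epithelium (29.4). In these pooled sums each was apart from the next, while tumour epithelium was not apart from B cells, which had 4 UMIs. Within a library the order was less firm: in the knockout library fibroblasts (293 CPM, 277 to 310) were not above endothelium (297 CPM, 247 to 355), and the intervals of basal and luminal gland overlapped there (104 to 143 and 88.6 to 109 CPM) and in the control (138 to 235 and 114 to 154 CPM). In gated leukocytes Fermt2 was all but missing: 5 and 6 UMIs in macrophages, 4 and 1 in T cells, 1 and 0 in neutrophils, and 0 in both sets of NK cells, where a count of 0 allows up to 9.13 CPM in the control and 2.08 CPM in the knockout library.

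Fermt3 RNA was that of blood cells. Macrophages held 184 CPM in the control (177 to 191) and 199 CPM in the knockout library (190 to 207). NK cells held 134 and 163 CPM, and T cells 104 and 113 CPM. Neutrophils were the lowest leukocytes, at 27.0 CPM in the control (29 UMIs in 413 cells) and 26.6 CPM in the knockout library (14 UMIs in 186 cells), and their median depth was also low, at 2474 and 2756 UMIs. Over the named clusters macrophages (193 CPM) stood apart from monocytes (161), monocytes and NK cells (157) did not differ beyond counting error, and conventional dendritic cells (117), T cells (107), mast cells or basophils (105) and plasmacytoid dendritic cells (100.1) followed with no neighbour apart from the next. Plasmacytoid dendritic cells differed between the libraries, at 64.4 CPM in the control (30 cells) and 112 CPM in the knockout library (121 cells), a log2 ratio of 0.80 (0.27 to 1.36). They therefore lay below T cells in the control (111 CPM) and not in the knockout library (104 CPM). The 30 control cells also held 9 Fermt1 UMIs (16.6 CPM) and 11 Fermt2 UMIs (20.2 CPM), and the 121 knockout cells held 0 of either. The part of RNA from other cells in this difference was not tested. B cells (67.6 CPM, from 23 UMIs) stood apart from neutrophils (27.6), and neutrophils from the stromal and epithelial classes.

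In tumour cells Fermt3 stood at 1.33 CPM in the control (154 UMIs) and 1.49 CPM in the knockout library (131 UMIs). Ptprc, the pan-leukocyte gene CD45, was at 1.61 and 3.08 CPM in the same cells, and the 7 macrophage markers, all detected, summed to 28.4 and 26.2 CPM. There were 0.824 Fermt3 UMIs per Ptprc UMI in control tumour cells and 0.483 in knockout tumour cells, against 0.388 and 0.432 in macrophages and 0.253 and 0.203 over all gated leukocytes. The parts of leukocyte RNA and of the overlapping gene Trpt1 in the tumour cells' Fermt3 counts were not tested.

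The mix of kindlins in a cell class follows from these levels. Each count is 1 tag per molecule at the 3' end, and no correction for gene length was made. Genes can differ in capture, and whether reads in introns were counted was not examined. Of all kindlin UMIs in tumour cells, Fermt1 made up 82.6% in the control and 91.4% in the knockout library, Fermt2 16.8% and 7.77%, and Fermt3 0.594% and 0.867%. Fibroblasts were the reverse for the first pair, with Fermt2 at 98.2% and 98.3% of kindlin UMIs. In macrophages Fermt3 made up 99.2% and 99.0%. In the gland classes 2 kindlins each made up a sizeable share. Basal cells held Fermt1 at 42.0% and Fermt2 at 56.8% in the control and 47.0% and 50.4% in the knockout library. Luminal cells leaned to Fermt2, with Fermt1 at 24.7% and Fermt2 at 72.6% in the control and 27.9% and 67.6% in the knockout library.

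Cells under 1000 UMIs were left out for a reading at equal depth, among them 39 control and 57 knockout macrophages. In the larger classes the same pattern held when the other cells were thinned to 1000 UMIs, which removes differences in depth. Then 14.3% of control tumour cells (13.0 to 15.7) and 12.1% of those in the knockout library (10.6 to 13.7) had a Fermt1 UMI. In T cells, which should lack the gene, 0 of 192 and 0 of 270 had one, which allows shares of up to 1.56% and 1.11%. Without thinning 88.5% and 87.0% of tumour cells had one, with 37543 and 43176.5 UMIs in the median cell. T cells had one in 1.55% and 0.368% of cells, at median depths of 8717.5 and 7327.5 UMIs. For Fermt2 the thinned shares of tumour cells were 3.32% in the control (2.67 to 4.07) and 1.07% in the knockout library (0.636 to 1.69), and the shares before thinning were 64.4% and 38.5%. For fibroblasts they were 24.1% (15.4 to 34.7) and 13.1% (6.72 to 22.2) after thinning. In endothelium they were 20% of 40 control cells (9.05 to 35.6) and 27.3% of 22 knockout cells (10.7 to 50.2). The gland classes were too small to order. Luminal shares of 21.2% in the control and 5.88% in the knockout library became 12.5% and 24.1% at 2000 UMIs. Of thinned T cells 1 of 192 (0.521%) and 0 of 270 had a Fermt2 UMI. Fermt3 was found in 15.96% of thinned macrophages of the control and 16.3% of those of the knockout library, beside 0 of 83 and 0 of 84 fibroblasts, whose counts of 0 allow up to 3.61% and 3.57%. Among leukocytes the thinned Fermt3 shares in the control and the knockout library were 12.5% and 17.0% for NK cells, 8.33% and 7.78% for T cells, and 1.54% and 2.21% for neutrophils. Neutrophils therefore remained the lowest at equal depth.

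Between the libraries, Fermt2 was lower in knockout tumour cells by the widest margin of the 3 genes. Its log2 ratio, knockout over control, was -1.49 (-1.58 to -1.40), a level 2.81-fold lower, and 1174 Fermt2 UMIs were still counted in the 1682 knockout tumour cells. Fermt1 was lower by a smaller amount, at -0.23 (-0.26 to -0.20), and Fermt3 was at 0.17 (-0.18 to 0.51). Of 16289 genes with at least 20 UMIs in tumour cells, 8.12% were at least 1.5-fold lower and 14.5% at least 1.5-fold higher, and Fermt2 is the kindlin gene among the former. The sum of kindlin RNA in tumour cells was therefore lower in the knockout library, and no kindlin gene was 1.5-fold higher there.

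Tumour cells fell into 6 clusters whose mix differed between the libraries: clusters 8 and 5 held 32.5% and 22.4% of control tumour cells, and clusters 0, 7 and 2 held 30.02%, 22.8% and 20.6% of knockout tumour cells. Fermt2 was lower in the knockout library in each of the 6 clusters, with intervals below 0 throughout. Its log2 ratio ran from -1.23 in cluster 5 (39.8 against 16.9 CPM) to -2.24 in cluster 8 (33.7 against 7.11 CPM). Control levels of Fermt2 were even, between 33.4 and 42.9 CPM in all 6 clusters, and knockout levels ran from 7.11 to 16.9 CPM. Fermt1 was less even, and its highest control level was in cluster 5 (254 CPM), against 156 CPM in cluster 8 and 138 CPM in cluster 1. Ibsp, Csf3 and Cxcl1 were among the 10 top genes of cluster 5 and also of cluster 8. The Fermt1 log2 ratio was below 0 in clusters 2 (-0.45), 5 (-0.19) and 7 (-0.20) and above 0 in cluster 8 (0.20, 0.10 to 0.29). It had an interval with 0 in clusters 0 and 1. With 1 mix of clusters applied to both libraries, an alternative added after the data were seen, the Fermt1 ratio was -0.10 in place of -0.23 and the Fermt2 ratio -1.59 in place of -1.49. Both values lay outside the main intervals, of -0.26 to -0.20 for Fermt1 and -1.58 to -1.40 for Fermt2. Fermt3 had an interval with 0 in all 6 clusters.

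**Figure D2:**
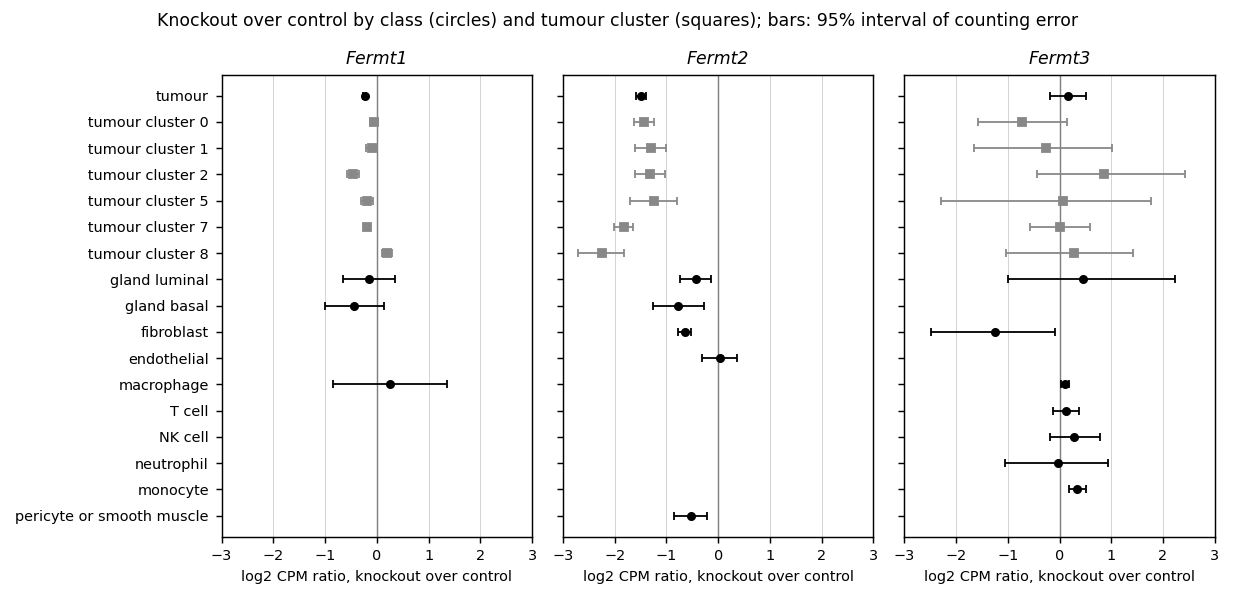
Log2 ratio of CPM, knockout over control, for each kindlin gene by cell class (circles) and by tumour cluster (squares), with 95% intervals of counting error; classes with under 20 UMIs in both libraries together, or 0 in 1 of them, are not drawn. Fermt2 lies below 0 in tumour cells (-1.49), in each of the 6 tumour clusters and in fibroblasts (-0.65), and near 0 in endothelium (0.03).

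Fermt2 was also lower in cells of the host. In fibroblasts the log2 ratio was -0.65 (-0.77 to -0.53), 1.57-fold lower, at equal numbers of cells. By background, 6.28% of 11160 genes with at least 20 UMIs in fibroblasts were at least 1.5-fold lower in the knockout library. As the mean of per-cell CPM the fibroblast ratio was -0.46. Acta2, smooth muscle actin, moved beside it in the same cells, from 2224 to 1230 CPM, and so did the summed pericyte or smooth muscle markers (63.2 CPM with 5 of 5 detected, and 40.8 CPM with 4 of 5, Rgs5 at 0). The 7 epithelial markers summed to 52.9 CPM (6 detected, Krt14 at 0) and 188 CPM (7 detected). The part of these in the Fermt2 difference was not tested.

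Gland luminal cells had a Fermt2 ratio of -0.44 (-0.73 to -0.13) and gland basal cells one of -0.78 (-1.27 to -0.27). The share of genes at least 1.5-fold lower was 14.5% of 7401 in basal cells and 13.8% of 10813 in luminal cells, in which Fermt2 itself did not reach 1.5-fold. The control library had only 33 luminal and 12 basal cells. Pericytes or smooth muscle cells stood at 703 CPM in the control (17 cells) and 486 CPM in the knockout library (9 cells; -0.53, -0.86 to -0.21). Endothelial cells did not differ beyond counting error, at 0.03 (-0.32 to 0.36), and the fibroblast ratio lies below that interval. The difference between these classes was not tested. By the design the guide was given to the 4T1 cells and not to the mouse.

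Fermt3 in macrophages had a log2 ratio of 0.11 (0.03 to 0.19), and the mean of per-cell CPM gave 0.28. In monocytes it stood at 135 CPM in the control and 171 CPM in the knockout library, a ratio of 0.34 (0.19 to 0.50). T cells (0.12, -0.13 to 0.38), NK cells (0.29, -0.18 to 0.78) and neutrophils (-0.02, -1.06 to 0.94) had intervals with 0. Fibroblasts had 18 Fermt3 UMIs in the control and 11 in the knockout library, a ratio of -1.25 (-2.48 to -0.09). Without the cell richest in Fermt3 in each library that interval reached 0.00421. Among leukocyte genes in the same fibroblasts, Ptprc had 26 and 7 UMIs, Lcp1 6 and 9, and Coro1a 8 and 17. The macrophage markers summed to 41.4 CPM with 4 of 7 detected in the control and 62.2 CPM with 7 of 7 in the knockout library. The part of leukocyte RNA in this Fermt3 difference was not tested.

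The spread of kindlin UMIs from cell to cell was examined in tumour cells with at least 20000 UMIs, each thinned to that depth (2334 control and 1550 knockout cells). Of control cells, 53.8% had no Fermt2 UMI, 30.2% had 1, 10.7% had 2, 3.60% had 3 and 1.80% had 4 or more. Of knockout cells, 80.2% had none, 15.3% had 1, 3.35% had 2, 0.968% had 3 and 0.194% had 4 or more. The variance of Fermt2 UMIs per cell was 1.36 times the mean in the control and 1.32 times in the knockout library, where independent counting of equal cells gives 1. For Fermt1 it was 4.93 and 4.53 times the mean. This ratio rises with the mean, which was 3.58 and 2.97 UMIs per cell for Fermt1 and 0.706 and 0.257 for Fermt2, so it gives no order of the 2 genes by their spread. In the control 14.95% of tumour cells had no Fermt1 UMI and 36.03% had 4 or more, and in the knockout library 22.1% had none and 29.8% had 4 or more.

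**Figure D3:**
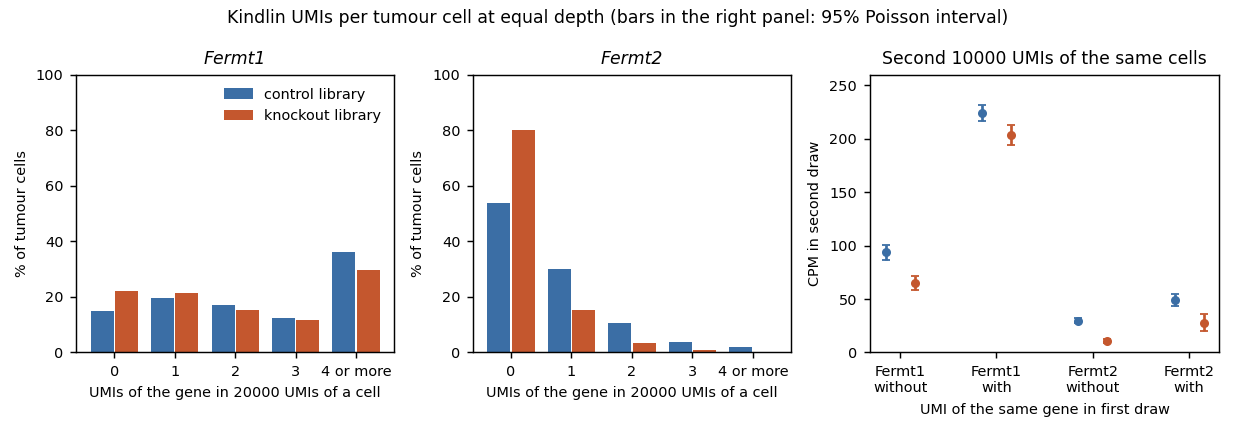
Percentage of tumour cells by the number of Fermt1 (left) and Fermt2 (middle) UMIs among 20000 UMIs of a cell, and (right) the level in a second set of 10000 UMIs of the same cells, divided by whether the first 10000 held a UMI of the same gene, with 95% Poisson intervals. Knockout cells with a Fermt2 UMI in the first set stand at 27.2 CPM in the second, between the 10.4 CPM of the other knockout cells and the 48.9 CPM of control cells with one.

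Knockout tumour cells with and without a Fermt2 UMI were then compared at equal depth. Among 1659 knockout tumour cells thinned to 10000 UMIs, 215 had a Fermt2 UMI (13.0%, 11.4 to 14.7), and among 2571 control cells 720 had one (28.0%, 26.3 to 29.8). The knockout share was lowest in cluster 8 (4.73%) and between 10.6% and 16.4% in the other clusters. Cluster 8 held 3.26% of knockout cells with a Fermt2 UMI and 9.76% of those without. Whether the division marks barcodes that differ in Fermt2 RNA beyond the draw was read from a second draw of 10000 other UMIs from the cells of at least 20000. In that draw knockout cells with a Fermt2 UMI in the first stood at 27.2 CPM (20.1 to 35.99) and those without at 10.4 CPM (8.73 to 12.2), a log2 ratio of 1.39 (0.89 to 1.87). Control cells stood at 48.9 and 29.6 CPM, a ratio of 0.72 (0.52 to 0.93). Knockout cells with a Fermt2 UMI did not differ beyond counting error from control cells without one, at -0.12 (-0.58 to 0.30), and were lower than control cells with one, at -0.85 (-1.31 to -0.41). Knockout cells without a Fermt2 UMI lay below control cells without one, at -1.52 (-1.80 to -1.24). Both draws came from the same barcodes, so RNA of another cell in a barcode would enter both. The part of such RNA in these levels was not tested.

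Fermt1 did not differ beyond counting error across the division of knockout cells at 10000 UMIs. It stood at 142 CPM in knockout cells with and 142 CPM in those without a Fermt2 UMI, a log2 ratio of -0.006 (-0.18 to 0.17). In control tumour cells it stood at 206 and 168 CPM, a ratio of 0.30 (0.21 to 0.39). Thinning to 20000 UMIs gave a knockout ratio of 0.21 (0.11 to 0.31) on sides of 310 and 1240 cells, an interval that leaves out 0. Fermt3 had 7 and 22 UMIs on the knockout sides, with an interval of the log2 ratio from -0.38 to 2.37.

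Of genes known to be far apart between the libraries, 7 were read on both sides of the division. Cldn7, a tight junction claudin, stood at 1.40 CPM in knockout cells with a Fermt2 UMI and 2.15 CPM in those without, against 51.8 and 54.2 CPM in the control. Ccl2, a monocyte chemokine, stood at 3.26 and 1.66 CPM in the knockout and 63.6 and 73.4 CPM in the control library. Pitx1, a homeobox gene, had 0 UMIs on both knockout sides, which allows up to 1.40 CPM with and 0.208 CPM without a Fermt2 UMI, against 6.39 and 5.997 CPM in the control. Rab6b stood at 0.465 and 0.485 CPM against 28.2 and 27.6 CPM, and Nox4, an NADPH oxidase, had 0 and 4 UMIs against 8.19 and 6.92 CPM. In the other direction, Epdr1 stood at 3.72 and 2.35 CPM in knockout cells and had 0 UMIs in 720 and 1851 control cells. Csn3, kappa casein, stood at 14.4 and 9.83 CPM against 0.833 and 0.378 CPM. The direction between the sides was not stable over depth. Thinned to 20000 UMIs, Ccl2 in the control stood at 79.5 CPM with and 61.9 CPM without a Fermt2 UMI (0.36, 0.26 to 0.46). Csn3 in the knockout library then stood at 8.06 and 13.3 CPM (-0.73, -1.19 to -0.29). The 7 genes were chosen for their levels over all knockout tumour cells. Such levels leave cells with a Fermt2 UMI little room to reach the control level. The values are therefore a description of both sides, and nothing is read from them about that distance.

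The sides of the division were then compared over all genes. Of 10645 genes with at least 50 thinned UMIs, 3.0% were at least 1.5-fold higher and 3.63% at least 1.5-fold lower in cells with a Fermt2 UMI. These are 319 and 386 genes, of which 144 and 125 had intervals without 0. Each interval was made for a single gene, and among 10645 genes some leave out 0 by counting error alone. The number expected in that way was not computed, so these counts do not show that genes differ between the sides. The counts moved with depth, to 603 and 928 of 9446 genes at 5000 UMIs and 163 and 262 of 11549 at 20000 UMIs. In the control library the shares were 1.40% and 1.48% of 11117 genes, on sides of 720 and 1851 cells. The knockout sides were smaller, at 215 and 1444 cells, and counting error spreads ratios more on smaller sides. The shares therefore do not rank the libraries. The 8 genes named on the higher side, by the interval bound farthest from 0, were Col12a1 (a fibril-associated collagen), Zfp804b, Mcc, Rufy4, Zfp46, Zfp566, Gbe1 (the glycogen branching enzyme) and Mecom (a zinc finger regulator). Col12a1 stood at 10.2 against 2.15 CPM, a log2 ratio of 2.25 (1.39 to 3.09), with 6.81 against 5.997 CPM in the control. Gbe1 stood at 46.5 against 24.5 CPM in the knockout library and at 53.8 against 29.9 CPM in the control. Mecom stood at 61.4 against 35.0 CPM, and at 23.1 against 17.2 CPM in the control.

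The 8 on the lower side were Saa3, Stra6, Mctp1, Dgke, Gpha2, 4930579C12Rik, Amigo2 and Itprid1, each with 0 to 4 UMIs in the cells with Fermt2 RNA. Saa3, an acute-phase gene, had 0 against 55 UMIs, but 1 cell held 92.9% of its UMIs in knockout tumour cells. That share was 28.5% for Gpha2, 15.2% for Zfp804b, 11.8% for 4930579C12Rik and 10.9% for Col12a1, and lower for the other named genes. Stra6, a retinol-binding protein receptor, stood at 0.465 against 5.26 CPM, and at 3.61 against 6.81 CPM in the control. Of the 16 named genes 4 (Gbe1, Mecom, Stra6 and Amigo2) had the same direction in the control with an interval without 0, and 0 had the opposite direction with such an interval. The 16 were picked by their knockout intervals, and the same count over all genes was not made. Whether 4 of 16 is more than other genes would give was therefore not tested.

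The partners of kindlins were read from a list of 36 genes, all of which had at least 20 UMIs in tumour cells. Of these 3 were at least 1.5-fold higher and 4 at least 1.5-fold lower in knockout tumour cells, beside the 14.5% and 8.12% of all genes, and 29 lay within 1.5-fold. The median log2 ratio was -0.036 for the list and 0.084 for all 16289 genes.

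Among the integrin beta subunits, the receptors that kindlins bind, Itgb1 was the most counted, at 694 CPM in the control and 615 CPM in the knockout library (-0.17). Itgb5, a partner of the alpha-v subunit, went from 116 to 54.2 CPM (-1.10, -1.14 to -1.05). Itgb3, another partner of alpha-v, went from 4.96 to 1.27 CPM (-1.96, -2.27 to -1.67), the 1 partner gene with a ratio below that of Fermt2. Itgb6 went the other way, from 4.75 to 6.99 CPM (0.56, 0.39 to 0.73), within 1.5-fold. Itgb2, the leukocyte subunit, went from 17.7 to 8.03 CPM (-1.14, -1.27 to -1.02), and it stood at 168 and 171 CPM in macrophages. Itgb4, the hemidesmosome subunit, was at 136 and 132 CPM. Itgb8 had 9 and 13 UMIs, a ratio with an interval from -0.41 to 2.34.

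Of the talins, the co-activators of integrins, Tln1 was at 146 and 137 CPM, and Tln2 went from 18.5 to 28.3 CPM (0.62, 0.53 to 0.70). The complex downstream of kindlin stayed near its control level in tumour RNA: Ilk, integrin-linked kinase, at 44.9 and 47.3 CPM, Lims1, encoding PINCH-1, at 162 and 168 CPM, Parva, alpha-parvin, at 89.3 and 86.9 CPM, and Rsu1, which binds PINCH-1, at 68.4 and 66.7 CPM. Lims2 (17 and 8 UMIs) and Parvg (10 and 15 UMIs) passed 1.5-fold on few UMIs, with intervals that include 0. Of the 7 partner genes past 1.5-fold, 4 (Itgb2, Itgb3, Itgb5 and Tln2) had intervals without 0. Ptk2, focal adhesion kinase, stood at 184 and 253 CPM (0.46), Pxn, paxillin, at 59.2 and 54.9 CPM, and Src at 40.7 and 38.4 CPM.

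**Figure D4:**
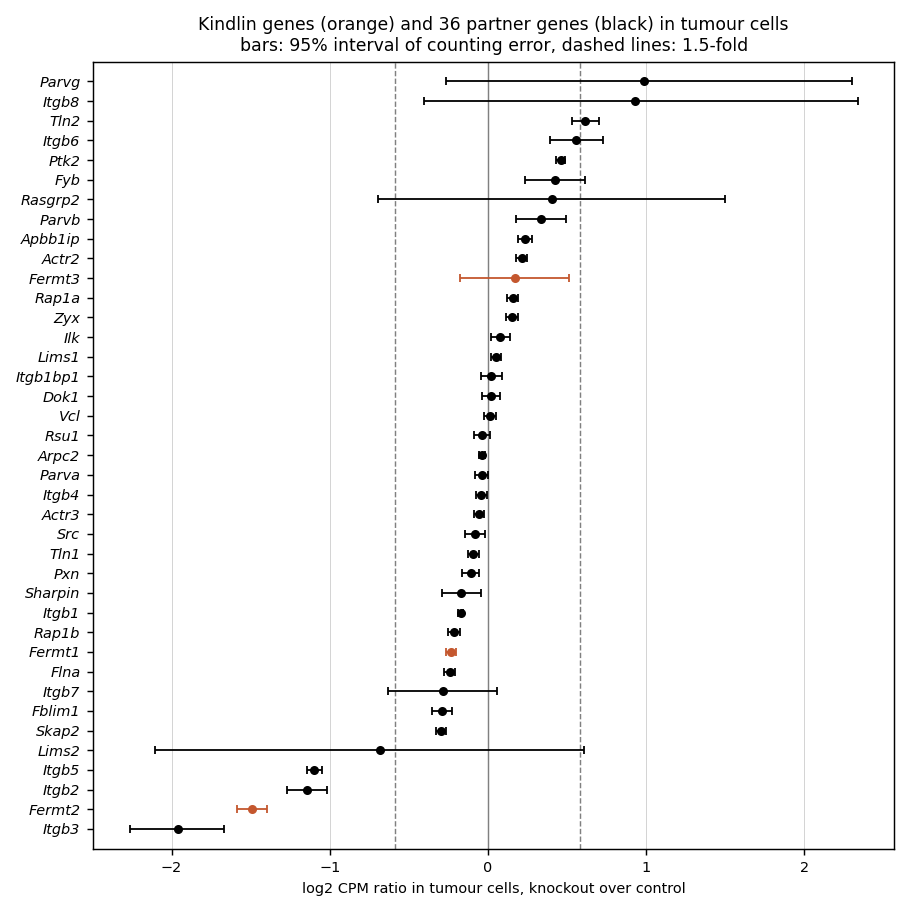
Log2 ratio of CPM in tumour cells, knockout over control, for the 3 kindlin genes (orange) and 36 partner genes (black), with 95% intervals of counting error and dashed lines at 1.5-fold. Most partners lie near 0, and Itgb3 (-1.96), Fermt2 (-1.49), Itgb2 (-1.14) and Itgb5 (-1.10) stand apart below it.

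Across the 7 gated classes of both libraries, 14 values a gene, 17 of the 36 partner genes stood at 10 CPM or more in every value, 17 in some and 2 (Itgb6 and Itgb8) in none. Among those in some, 3 are given as examples, chosen after their values were seen. Parva stood at 218 and 214 CPM in fibroblasts, 106 and 116 CPM in endothelium, 89.3 and 86.9 CPM in tumour cells and under 2 CPM in every gated leukocyte class. Parvg, gamma-parvin, stood at 35.4 and 34.0 CPM in T cells, 39.5 and 43.7 CPM in NK cells and 15.7 and 16.9 CPM in macrophages, and at 0 UMIs in fibroblasts. Itgb4 stood at 136 and 132 CPM in tumour cells, 11.3 and 65.2 CPM in endothelium and 1.70 and 2.31 CPM in macrophages. Tln1 was present in all 7 gated classes, between 137 and 373 CPM.

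The genes whose class pattern was most like each kindlin were ranked by Pearson's r of log2(CPM + 1) over 14 points, the 7 gated classes in both libraries, among 13648 genes with at least 200 UMIs. The points share libraries, depth and gates, so r is a description with no p. For Fermt1 they were Bnc1 (basonuclin, r = 0.972), Anxa8, Gm33680, Lypd3 and Zic5 (r = 0.968). For Fermt2 they were Ccn2 (connective tissue growth factor, r = 0.989), Gm28055, Cdr2l, Sparc (an abundant matrix protein) and Zfp9 (r = 0.975). For Fermt3 they were Tnfaip8l2, Gpr65, Galnt6, Id2 and Supv3l1, with r from 0.976 to 0.973. Ccn2 held 427 and 265 CPM in fibroblasts and 30.6 and 9.77 CPM in tumour cells, lower in the knockout library in both classes as Fermt2 was, and 85.7 and 190 CPM in endothelium, where Fermt2 was level. With log2(CPM + 10) the first 5 kept 1 gene for Fermt1 (Bnc1), 3 for Fermt2 and 2 for Fermt3.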

How the data were processed

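The authors deposited 1 matrix of UMI counts (whole numbers per gene and barcode, not normalized) for both libraries. The submitters' processing notes name Cell Ranger 2.1.1 and mm10, but version 6.0.1 stands in the header of the matrix, and which of them made the counts is uncertain. Barcodes with suffix 1 were read as control cells and those with suffix 2 as knockout cells, from the labels' library numbers alone. No barcode had another suffix.

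Barcodes with at least 500 UMIs, 200 genes and at most 20% mitochondrial UMIs were kept, and doublets called by Scrublet were removed (217 control, 2.80%, and 201 knockout, 2.89%). Cells were clustered in scanpy 1.11.5 (2000 variable genes, 30 components, 15 neighbours, Leiden resolution 1.0, igraph 0.11.9) without integration and named from markers. A cluster led by haemoglobin and immunoglobulin genes (247 control and 179 knockout cells) was left unnamed. The naming threshold was set after it was seen. Also left out, as shallow and with no T cell marker among the 10 top genes, were 2 lymphocyte clusters. They were led by Foxp3 and Il2ra (114 and 274 cells, median 5961.5 UMIs) and by Il17a and Trdc (122 and 19, median 5358). A T cell cluster with a median of 5700 UMIs was kept. The T cell values thus leave out these 2 clusters. Their Fermt3 stood at 146 and 152 CPM in the first and 101 and 111 CPM in the second, in the control and the knockout library. Cells past more than 1 gate (1089 and 1169) or none (1546 and 1489) are in no class.

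UMIs were summed per class and divided by the class total. Intervals are exact: Poisson for CPM, Clopper-Pearson for shares and conditional binomial for ratios. They cover counting error only, and where labels give 1 library per group no test was made. A count of 0 is given the limit of 3 counts. Cells were thinned by drawing UMIs without replacement. Ratios and thinning were tested on simulated counts. These were Poisson counts, the model behind the intervals, so the intervals were not tested under spread between cells. Named genes were the members, gates, partners past 1.5-fold, the 5 genes most like each member, the 8 on each side of the Fermt2 division, and 7 genes known to separate the libraries. The members, lists and rules were chosen with earlier results of these data known. Sums and intervals used scipy 1.17.1 and numpy 2.4.6 under Python 3.11.15. Depth was 214163620 UMIs in the control and 180774106 in the knockout library. Annotation was GENCODE M21 (99.6% of the matrix's gene identifiers matched), and promoters came from RefSeq.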

Additional observations from a re-analysis of the deposited data

Results flagged for a closer look

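The Fermt3 ratio, knockout over control, was above 0 in macrophages (0.11) and below 0 in fibroblasts (-1.25, from 18 and 11 UMIs), each with an interval without 0. The Fermt1 ratio was above 0 in tumour cluster 8 (0.20) and below 0 in clusters 2 (-0.45), 5 (-0.19) and 7 (-0.20). These are differences between cell groups of 1 library pair, and the differences themselves were not tested.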

How the results depend on the processing

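No paired analysis was possible because each group has 1 library. The 16 class ratios were recomputed under 10 settings, 2 of them chosen after the data were seen, which gave 142 values, of which 129 stayed within the main interval and 125 kept the main sign. None reversed a ratio whose interval left out 0. Of the main ratios, Fermt1 in tumour cells was -0.27 with the gate alone, -0.28 with the named cluster alone, -0.31 with median-ratio scaling, -0.29 as the mean of per-cell CPM and -0.10 with 1 mix of tumour clusters. Fermt2 in tumour cells was -1.17 with the gate alone and -1.59 with 1 mix of clusters. Fermt2 was -0.46 in fibroblasts as the mean of per-cell CPM and -2.45 in endothelium with the gate alone, and Fermt3 in macrophages was 0.28 as the mean of per-cell CPM. Median-ratio scaling moved the median of all genes by 0.12 in gland basal cells and by less than 0.1 in the other 8 classes. Thinning to 5000 UMIs gave 603 genes higher and 928 lower in knockout tumour cells with a Fermt2 UMI and 333 lower in control cells, in place of 319, 386 and 165, and thinning to 20000 UMIs gave 163 higher in the knockout library. At 20000 UMIs the Fermt1 ratio across the knockout division was 0.21. At that depth the Ccl2 ratio across the control division was 0.36 in place of -0.21. The Csn3 ratio across the knockout division was -0.73 in place of 0.55. At 2-fold, 0 partner genes were higher. Counting limits the classes with few UMIs, as for Fermt3 in neutrophils (-1.06 to 0.94) and Fermt2 in gland basal cells (-1.27 to -0.27).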
